A study of Poecilia mexicana x Poecilia latipinna and Poecilia formosa with 28 samples.

Results

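The 200 genes described here are those with the highest read counts in the brain among genes that were much scarcer in liver and ovary. They were chosen by their CPM (a gene's count divided by the library's total count, times 1e+06), out of a table of 31997 genes, under 3 conditions. The brain mean had to be at least 10 times the liver mean and at least 10 times the ovary mean. Genes whose genotype means, each plus 0.5 CPM, differed 4-fold or more in any organ were dropped. The 200 highest brain means were kept. Because of the added 0.5 CPM, genes scarce in an organ could stay with a larger difference in CPM there. The first condition left 3452 genes and the second 3332. Those values are given below as a description. Calls of single genes between the genotypes are counted beside all genes tested, and are not a test of the set.

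The libraries come from Poecilia formosa, the Amazon molly, an all-female fish that reproduces as a clone and arose from a cross of P. mexicana with P. latipinna, and from F1 hybrids of those species. The P. formosa fish were siblings of 1 laboratory clone kept for about 70 generations. The hybrids were siblings of 1 brood of a P. mexicana mother and a P. latipinna father. All were untreated females of 3 months, matched in size. Messenger RNA was sequenced from brain (4 P. formosa, 6 hybrids), liver (4 and 6) and ovary (4 and 4), which gives 28 libraries. Because fish of one group share a mother, the spread among them covers 1 clone and 1 brood and not the species at large.

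A brain differs from other organs mainly in its neurons and glia. Neurons hold large amounts of RNA for the proteins of synapses, axons and ion channels, and glia for myelin and for the uptake of transmitters, and little of this RNA is made by liver cells or oocytes. In whole-organ RNA, fewer cells of a type and less RNA per cell cannot be told apart. Genes carry a number and no name in the files, so they are given here by that ID or by their rank in brain level, with no function and no sequence, and markers of neurons, glia or other cell types were not analysed here.

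Library totals ran from 32460110 to 46316691 counts. P. formosa brain 11 stood apart from the other brains. In it, 436 genes of at least 10 CPM exceeded every other brain 3-fold or more and together took 7.93% of its counts, while the other 9 brains had 0 to 23 such genes with at most 0.120% of the counts. Results on brain are therefore given with and without this fish. The library numbers in the labels also fall into 2 runs, one with all P. formosa fish and hybrids 4 and 10 and a later one with hybrids 11 to 14, and the labels do not call them batches.

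In brain the 200 genes spanned 291 to 4714 CPM, with a median of 453 CPM, and 23 genes reached 1000 CPM. CPM are not divided by gene length, so the ranks order read counts and not molecules. Gene 103133992 held the first rank, with 3542, 4198, 2370 and 4235 CPM in P. formosa brains 3, 4, 11 and 12, and with a lowest value of 4277, a median of 5878 and a highest value of 7692 CPM in the 6 hybrid brains. All 4 P. formosa values lay below all hybrid values, the nearest being P. formosa fish 12 and hybrid fish 4. Among the hybrids, fish 4 and 10 had 4277 and 4280 CPM and fish 11 to 14 had 5590 to 7692 CPM, so that the genotypes lay closer within the earlier run of library numbers. Gene 103148825 followed with 4716, 4244, 2946 and 4414 CPM in the same P. formosa brains and with 4695, 4944 and 6104 CPM as the lowest, median and highest hybrid value, and the ranges of the genotypes met. The genes at ranks 6 and 9 overlapped between the genotypes. The gene at rank 6 had 2708, 2958, 1739 and 2823 CPM in P. formosa brains 3, 4, 11 and 12, and 2322, 2737 and 3148 CPM as the lowest, median and highest hybrid value. The gene at rank 9 had the highest ratio of P. formosa to hybrid means in brain (1.22), with 1785, 2581, 1612 and 2500 CPM in P. formosa, against 1170, 1665 and 2175 CPM as the lowest, median and highest hybrid value. Fish 11 was the lowest P. formosa brain in both genes. The first 10 genes held 20.03% to 25.9% of the counts of the 200 in any brain. The genes at ranks 198 to 200 had 293, 292 and 291 CPM, and the 3 next genes, outside the set, had 291.4, 290.8 and 288 CPM.

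The genes were scarce in liver and less so in ovary. The median gene had 0.397 CPM in liver and 5.76 CPM in ovary, and 135 of the 200 were under 1 CPM in liver against 26 in ovary. Brain exceeded liver by a median of 1545-fold and ovary by a median of 107-fold, and 109 genes passed 1000-fold over liver against 2 genes over ovary. Of the 200, 93.5% were higher in ovary than in liver, as were 76.7% of all 3332 genes that met the conditions and 81.0% of the 22091 genes with 1 CPM in any organ. None was without counts in either organ: the scarcest had 12 counts over all 10 livers, and 115 counts was the least over the 8 ovaries. The liver signal sat in few genes, with 60.8% of it in 10 genes, against 27.8% in the 10 leading genes of the ovary. The gene at rank 13 was the highest in liver, with 157, 158, 185 and 131 CPM in P. formosa livers 3, 4, 11 and 12 and with 99.99, 122 and 185 CPM as the lowest, median and highest hybrid liver. Over both genotypes it averaged 1547 CPM in brain and 117 CPM in ovary. The gene at rank 11 was the highest in ovary, with 105 ± 4.99 CPM in P. formosa and 133 ± 10.7 CPM in hybrids (SD, n = 4 each), and every P. formosa ovary was below every hybrid ovary. Liver level also varied strongly among siblings in some genes: the gene at rank 135 had 2.93, 4.08, 25.7 and 21.3 CPM in P. formosa livers 3, 4, 11 and 12 and 4.64, 3.59, 25.8, 97.4, 33.7 and 69.0 CPM in hybrid livers 4, 10, 11, 12, 13 and 14. Its low livers were fish 3 and 4 of P. formosa and 4 and 10 of the hybrids, while its brain level was 349 to 463 CPM in all fish. Among the hybrids this split was also that of the runs of library numbers, so fish and run cannot be told apart there. Among P. formosa it fell within the earlier run.

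**Figure D1:**
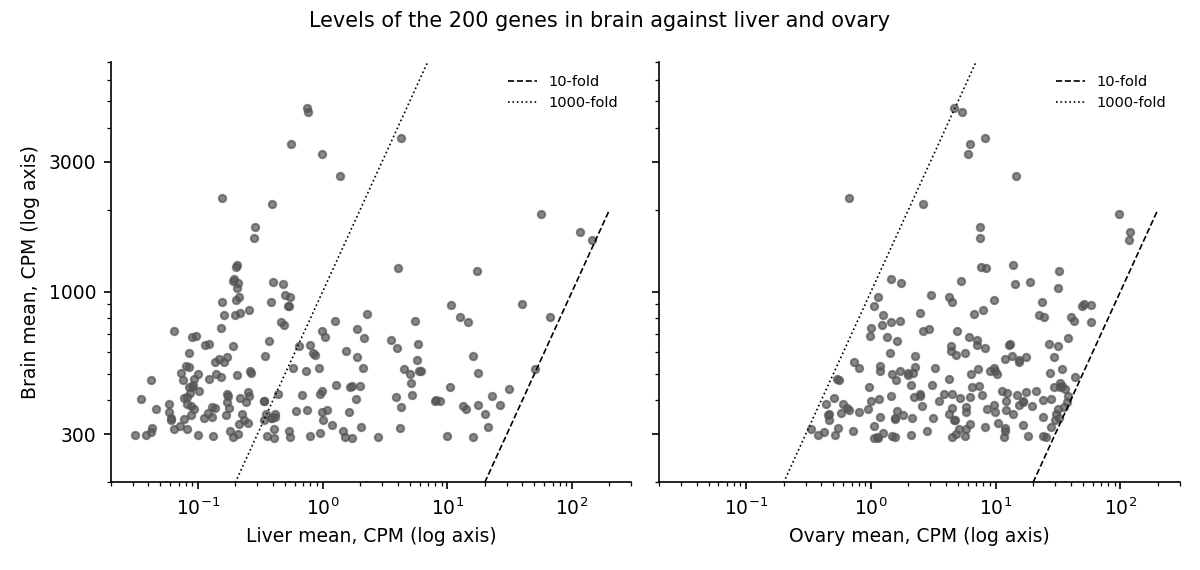
Each point is 1 of the 200 genes, with its brain mean in CPM (log axis) against its liver mean (left) or ovary mean (right), both genotypes weighted equally. Lines mark 10-fold and 1000-fold: 109 genes lie above the 1000-fold line for liver and 2 genes above it for ovary.

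At the limits of the conditions, the gene just inside for liver had 522 CPM in brain, 10.4 times its liver level, and the gene just inside for ovary was 10.5 times its ovary level. Just outside were genes at 9.91 and 9.83 times. The limit on genotype removed 22 genes that would otherwise have ranked among the 200. Of these, 16 were over the limit in liver, each with P. formosa higher, and 6 in ovary, 5 with P. formosa higher and 1 lower. The genotype ratio used by the rule (means plus 0.5 CPM) reached 3.85 in liver and 3.87 in ovary inside the limit and began at 4.04 outside. Since the limit cut mainly genes that were high in P. formosa liver, the genotype comparison in the 200 is bounded by the choice of genes, and counts from it are given as a description, from which nothing is read about the set.

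Of all counts of a brain library, the 200 genes took 13.7%, 12.2%, 8.49% and 13.4% in P. formosa brains 3, 4, 11 and 12, and 14.3%, 14.7% and 15.0% as the lowest, median and highest of the 6 hybrid brains. Every P. formosa brain was below every hybrid brain, and fish 11 was far below its siblings. The mean was 12.0% ± 2.40 (SD, n = 4) against 14.6% ± 0.251 (SD, n = 6), and 13.1% ± 0.795 without fish 11 (SD, n = 3). Hybrids 4 and 10, of the same run as P. formosa, were at 14.4% and 14.3%, the lowest of the hybrids and still above every P. formosa brain. The place of hybrid 10 in this order depended on gene 103149218, at rank 7. Without that gene the set summed to 139905 CPM in hybrid 4 and 143274 CPM in hybrid 10. Hybrids 11, 12, 13 and 14 then had 140151, 146906, 149725 and 140197 CPM, so hybrid 10 was above hybrids 11 and 14. The highest P. formosa brain, fish 3, then had 134312 CPM, still below every hybrid. In liver the genes took 0.112% ± 0.0177 of the counts in P. formosa (SD, n = 4) and 0.0772% ± 0.00990 in hybrids (SD, n = 6), and the groups met at 0.0928% in P. formosa liver 4 and 0.0930% in hybrid liver 11. P. formosa fish 11, lowest in brain, was the highest in liver, at 0.136%. In ovary the share was 0.254% ± 0.0213 in P. formosa and 0.234% ± 0.0269 in hybrids (SD, n = 4 each), with overlapping values.

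**Figure D2:**
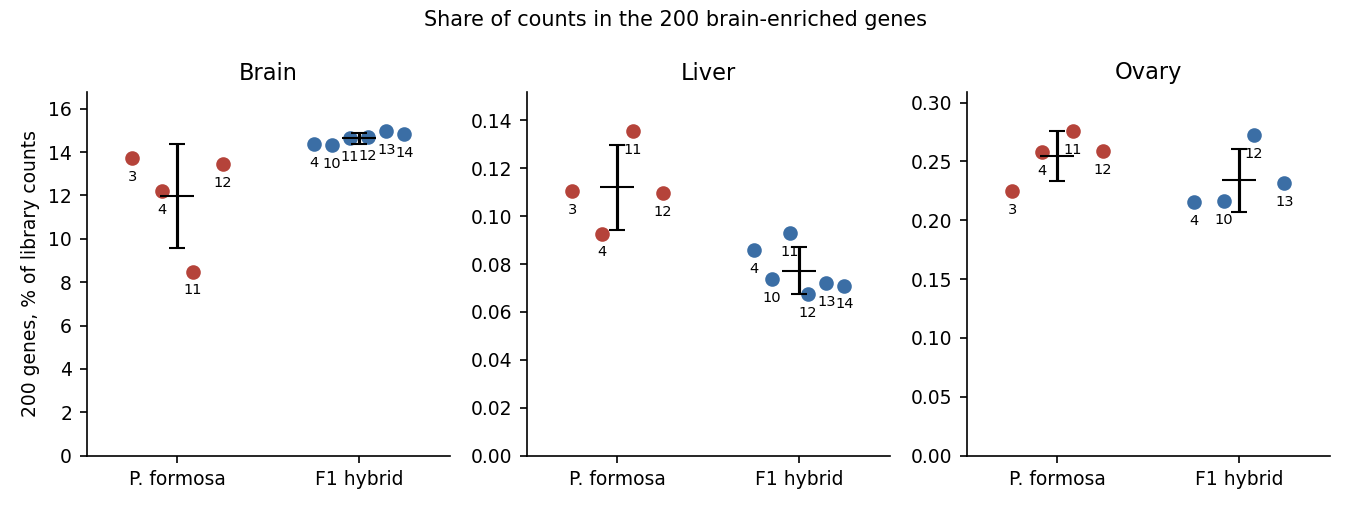
Points show, per library, the percentage of all counts that fell on the 200 genes, for P. formosa (left in each panel) and F1 hybrids (right), with fish numbers below the points; bars are mean ± SD. All 4 P. formosa brains lie below the 6 hybrid brains, with fish 11 lowest at 8.49%, while in liver P. formosa fish 11 is highest at 0.136%.

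Setting the genotypes side by side asks what distinguishes an old clonal hybrid lineage from hybrids newly made by the same cross. In brain the P. formosa mean was the lower one for 184 of the 200 genes, against 47.8% of all 22611 genes tested. Without fish 11 it was the lower one for 151 genes, against 44.2% of all. The median log2 fold change (P. formosa minus hybrid) was -0.23 over the 200 genes and 0.03 over all genes tested. It was scaled by TMM, which adjusts library totals for composition. Without fish 11 the medians were -0.12 over the 200 genes and 0.01 over all genes tested. By fish, the median log2 difference from the hybrid mean in plain CPM was -0.02 in P. formosa fish 3, -0.22 in fish 4, -0.72 in fish 11 and -0.07 in fish 12. With TMM it was -0.61 in fish 11. Fish 11 was below its 3 siblings for 196 of the 200 genes and was the lowest of all 10 brains for 184, against 39.1% of the 15239 genes with a brain mean of at least 5 CPM. The part that its 436 outlying genes have in this was not tested.

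Single genes were called at an adjusted p under 0.05 by edgeR's quasi-likelihood test, fitted on all genes. As the rule bounded this contrast, the calls are a description. In brain 16 of the 200 were called lower in P. formosa and none higher, where 4.27% of all genes tested were called lower and 7.79% higher. At an unadjusted p under 0.05 the counts were 78 lower and 0 higher, against 12.1% and 18.6% of all genes tested. DESeq2 called 53 lower and 0 higher, against 8.04% and 12.3% of all. The called genes differed by -0.40 to -1.29 on the log2 scale. Without fish 11, 10 genes were called lower, all of them among the 16, and 1 gene higher, against 3.10% and 4.82% of all genes tested. By an unadjusted p under 0.05 of the same edgeR test, 50 were then lower and 2 higher, against 11.1% and 14.1% of all. Without fish 4 and 11 together, 4 genes were called lower, again among the 16, against 1.64% of all. Leaving out P. formosa fish 3 gave 32 genes lower (4.76% of all) and fish 4 gave 5 (1.84% of all), while leaving out hybrid fish 11, 12, 13 or 14 gave 9, 6, 7 or 8 (2.22% to 2.77% of all). With the runs of library numbers as a term, 1 gene was called lower, against 1.23% of all. Within the run that holds both genotypes, which leaves hybrids 4 and 10, none was, against 0.518% of all. At an unadjusted p under 0.05 by the same test, 19 were lower and 0 higher within that run, against 5.63% and 7.39% of all.

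The 4 genes called lower without fish 4 and 11 were those at ranks 4, 141, 152 and 187. Gene 103145747, at rank 152, had 229, 202, 155 and 247 CPM in P. formosa brains 3, 4, 11 and 12, against a lowest value of 330, a median of 514 and a highest value of 753 CPM in the hybrid brains. The genotypes did not overlap, and the log2 fold change was -1.29 (SE 0.20). Gene 103133106, at rank 187, had 210, 220, 146 and 201.1 CPM in P. formosa, against 340, 377 and 559.5 CPM as the lowest, median and highest hybrid value, a log2 fold change of -1.05 (SE 0.15). The gene at rank 4 had 3147, 2195, 1738 and 2675 CPM in P. formosa against 4084, 4184 and 5871 CPM in hybrids, and differed by -0.88 (SE 0.16). In these genes P. formosa brain 11 was the lowest library, and each of its siblings lay below every hybrid. Genes named by genotype were picked for a lack of overlap, so this order is a description. Over all 200, groups did not overlap for 18 genes, each lower in P. formosa, where 4.81% of all genes tested were lower without overlap and 6.56% higher.

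**Figure D3:**
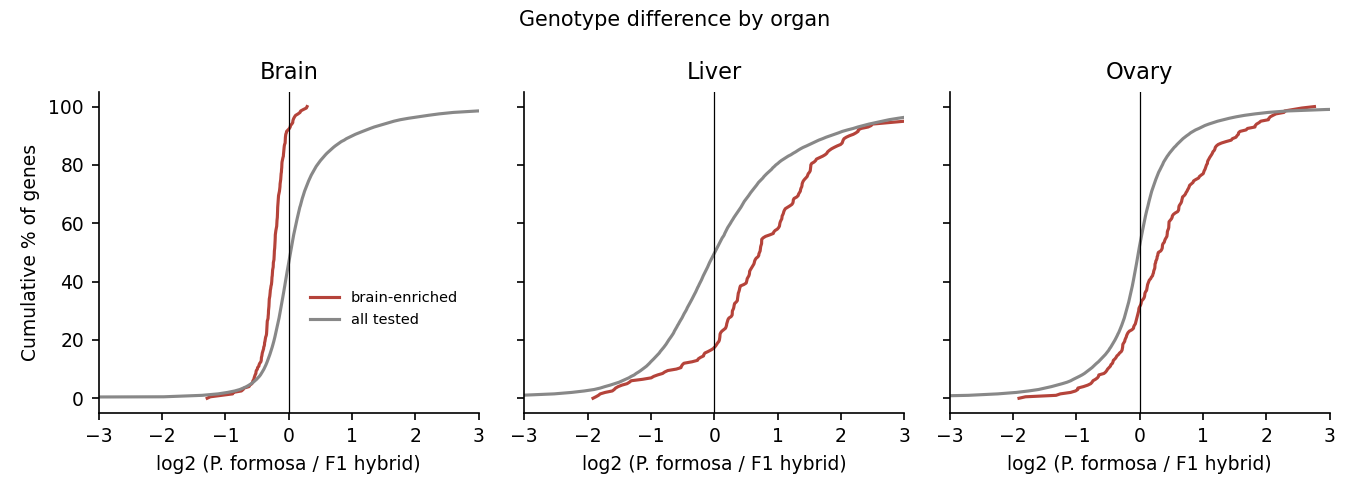
Cumulative percentage of genes by log2 fold change (P. formosa over F1 hybrid) in the 3 organs, for the brain-enriched genes that passed the filter on low counts (200 in brain, 118 in liver, 199 in ovary) and for all genes tested. Over most of its length the curve of the brain-enriched genes lies left of the other in brain (medians -0.23 and 0.03) and right of it in ovary (medians 0.29 and -0.02); in liver it holds only the 118 genes that passed.

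In liver the P. formosa mean was the lower one for 17 of the 200 genes, against 37.5% of the 25772 genes with a count in any liver. The median log2 ratio over all 200, from TMM-scaled means plus 0.5 CPM, was 0.33, and 0.40 with plain library totals. Only 118 of the 200 passed the filter on low counts, and a scarce gene could pass through the genotype where it was higher. Of these 118 genes, 46 were called higher and 8 lower in P. formosa, while 24.2% of all genes tested were called higher and 22.5% lower, 46.7% in either direction. Groups did not overlap in 32 of the 118 with P. formosa above and in 2 with P. formosa below, against 19.8% and 10.6% of all genes tested. With upper-quartile scaling the median of all liver genes moved to 0.17 on the log2 scale, and 58 of the 118 were called higher and 7 lower, against 28.9% and 17.3% of all. Leaving out P. formosa fish 4, 11 or 12 left 5 genes called lower, against 17.0% to 19.5% of all. Called higher were then 48, 33 or 46 genes, against 19.4% to 22.6% of all. With the runs of library numbers as a term, 26 were called higher and 5 lower, against 18.6% and 17.6% of all. Levels were low: 15 of the 46 genes had under 1 CPM in P. formosa liver and 7 had at least 10 CPM.

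Fish 11 was the highest of the 4 P. formosa livers for 97 of the 200 genes, against 41.2% of all genes tested, and for 31 of the 46 called higher, against 63.4% of all genes called higher. Gene 103130143, at rank 60, had 0.254, 0.579, 2.22 and 1.87 CPM in P. formosa livers 3, 4, 11 and 12, and 0, 0.0486 and 0.131 CPM as the lowest, median and highest hybrid liver. Every P. formosa liver was above every hybrid liver, and fish 11 and 12 were well above fish 3 and 4. The log2 fold change was 4.14 (SE 0.70). Gene 103147594, at rank 108, had 0.784, 0.765, 2.86 and 3.11 CPM against 0.0474, 0.111 and 0.216 CPM, a difference of 3.74 (SE 0.50). For both genes the hybrid livers were near 0 CPM, and the filter on low counts was passed through the P. formosa livers. Their fold changes rest on few hybrid reads and are a description. Fish 11 and 12 were the highest in 4 of the 5 genes with the largest positive difference among called genes without overlap and with at least 1 CPM in P. formosa. In brain the first of this pair averaged 556.4 ± 91.2 CPM in P. formosa (SD, n = 4) and 709 ± 74.9 CPM in hybrids (SD, n = 6). In the other direction, gene 103133922, at rank 51, had 0.346, 0.695, 0.638 and 0.569 CPM in P. formosa liver and 0.811, 1.52 and 2.42 CPM as the lowest, median and highest hybrid value (log2 fold change -1.59, SE 0.35).

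The ovary showed differences in both directions. Of 199 genes that passed the filter, 48 were called higher and 14 lower in P. formosa, where 14.2% of the 22164 genes tested were called higher and 13.1% lower. P. formosa was above the hybrids without overlap for 45 genes and below for 15, against 17.3% and 14.1% of all genes tested. The P. formosa mean was the lower one for 62 of the 200, against 51.5% of all genes tested, and the median log2 ratio over all 200 (TMM-scaled means plus 0.5 CPM) was 0.28. Leaving out P. formosa fish 11 gave 25 genes called higher and 8 lower, leaving out P. formosa fish 4 gave 27 and 11, P. formosa fish 12 30 and 10, and hybrid fish 13 31 and 11. Without P. formosa fish 3, 56 genes were called higher and 8 lower. Over these 5 fits, 10.5% to 12.0% of all genes were called higher and 8.57% to 10.7% lower. Leaving out hybrid fish 12 gave 64 and 12, hybrid fish 4 47 and 16, and hybrid fish 10 35 and 16. With those hybrids left out, 13.3% to 14.4% of all genes were called higher and 12.4% to 14.2% lower.

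Gene 103129462, at rank 89, had 1.28, 2.58, 3.18 and 3.22 CPM in P. formosa ovaries 3, 4, 11 and 12, against 0.152, 0.1995, 0.897 and 0.265 CPM in hybrid ovaries 4, 10, 12 and 13. The groups did not overlap and the log2 fold change was 2.76 (SE 0.54). In brain its means were nearly equal, 502 ± 91.6 CPM in P. formosa (SD, n = 4) and 499.6 ± 216 CPM in hybrids (SD, n = 6). Gene 103138399, at rank 165, had 2.05, 2.44, 2.85 and 3.24 CPM against 0.631, 0.333, 0.752 and 0.241 CPM, a difference of 2.42 (SE 0.35). For both of these genes the hybrid ovaries were under 1 CPM, so the fold changes rest on few hybrid reads and are a description. As in liver, a scarce gene could pass the filter on low counts through the genotype where it was higher. Lower in P. formosa were gene 103154167, at rank 169, with 1.40, 1.98, 2.50 and 1.99 CPM against 7.55, 7.56, 10.8 and 3.37 CPM (log2 fold change -1.91, SE 0.33), and gene 103129436, at rank 145. Among the genes given with a log2 fold change in ovary, this last gene had the smallest SE. It had 3.77, 3.70, 4.29 and 3.45 CPM in P. formosa, against 13.0, 13.2, 12.7 and 13.9 CPM in hybrids (log2 fold change -1.80, SE 0.11).

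Differences between the organs were not tested. Gene 103147594, which was higher in all P. formosa livers, averaged 7.71 ± 1.18 CPM in P. formosa ovary and 15.0 ± 5.58 CPM in hybrid ovary (SD, n = 4 each), without overlap.

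Gene 103149218, at rank 7, behaved unlike the other 199. It had 2758, 1292, 0.109 and 1254 CPM in P. formosa brains 3, 4, 11 and 12, and 3923, 0.133, 6372, 17.7, 1.36 and 8144 CPM in hybrid brains 4, 10, 11, 12, 13 and 14. It had 1254 CPM or more in 6 brains and 17.7 CPM or less in P. formosa brain 11 and hybrid brains 10, 12 and 13. The range was 39016-fold (after adding 0.1 CPM), while the next largest among the 200 was 4.87-fold and the median 1.87-fold. It alone among the 200 did not have every brain above every liver and every ovary. In liver it had at most 0.283 CPM. In ovary it had 0.605, 0.186, 2.83 and 0.116 CPM in P. formosa fish 3, 4, 11 and 12 and 1.17, 0.0222, 0.242 and 0.145 CPM in hybrid fish 4, 10, 12 and 13, and the highest ovary came from P. formosa fish 11, whose brain was at 0.109 CPM.

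Of 6386 genes that reached 50 CPM in some brain, 74 ranged over 100-fold among the 10 brains, and 56 of these peaked in P. formosa brain 11. In 5 of the 74, gene 103149218 included, the same 4 brains were the lowest. The other 4 were not among the 200. The one with the widest range, gene 103146889, had 57.0, 265, 1.39 and 195 CPM in P. formosa brains 3, 4, 11 and 12 and 300.2, 0.453, 1145, 3.78, 0.585 and 801 CPM in hybrid brains 4, 10, 11, 12, 13 and 14. The likeness was judged only by which 4 brains were lowest. No correlation is given, since the brains form separate clusters in these genes, and the low brains came from both genotypes and both runs of library numbers.

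**Figure D4:**
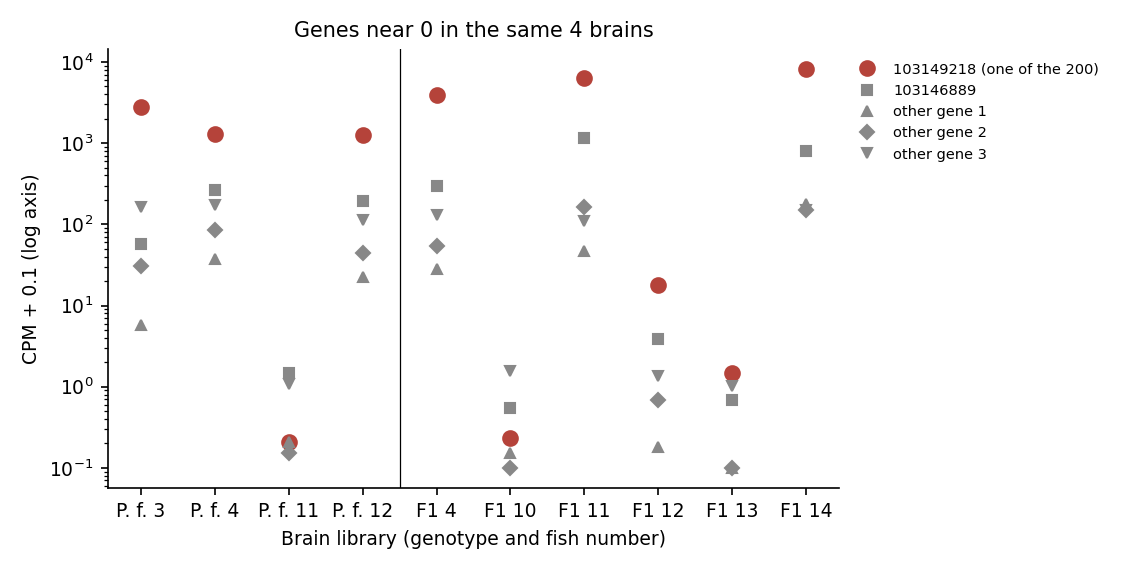
CPM plus 0.1 (log axis) in each of the 10 brains, P. formosa left of the line and F1 hybrids right, for gene 103149218 and the 4 other genes with a range over 100-fold that were lowest in the same 4 brains. In P. formosa brain 11 and hybrid brains 10, 12 and 13 gene 103149218 was between 0.109 and 17.7 CPM, against 1254 to 8144 CPM in the other 6.

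Spread among siblings was judged by the SD of log2 CPM. This SD (after adding 0.5 CPM) had a median over the 200 of 0.33 in the 4 P. formosa brains and 0.14 in the 6 hybrid brains, while all 15239 genes with a brain mean of at least 5 CPM had medians of 0.25 and 0.16. Without fish 11 the P. formosa median was 0.12 for the 200 and also 0.12 for all genes. An SD over 0.5 was found for 5 of the 200 in hybrids, against 3.69% of all genes, for 1 of the 200 in the 4 P. formosa brains, against 12.4% of all, and for 1 without fish 11, against 5.90% of all.

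Some genes varied together among the hybrid siblings. Gene 103137993, at rank 5, had 3967, 5245, 2819, 3293, 5277 and 2518 CPM in hybrid brains 4, 10, 11, 12, 13 and 14. Hybrids 10 and 13 were high, hybrid 4 intermediate, and hybrids 11, 12 and 14 low. In P. formosa brains 3, 4, 11 and 12 it had 2907, 2562, 1814 and 3010 CPM. The genes at ranks 3, 8, 29, 130 and 137 followed it, with Pearson's r from 0.91 to 0.98 over the 6 hybrid brains. The gene at rank 29, the closest, had 1188, 1468, 764, 889, 1432 and 782 CPM in the hybrids in the same order. A likeness of this kind (r of at least 0.9 and an SD of at least 0.25, limits chosen after the values were seen) was found for 2.51% of the other 199 genes and 0.932% of the genes with 5 CPM.

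Another group of genes was lowest in fish 13 among the hybrids, a trait shared by 62 of the 200 genes. The share of all genes with this trait was not counted. Gene 103141082, at rank 34, had 811, 778, 1112, 952, 315 and 1043 CPM in hybrid brains 4, 10, 11, 12, 13 and 14, and 993, 974, 558 and 996 CPM in P. formosa brains 3, 4, 11 and 12. It was the most variable of the 200 among hybrids after gene 103149218, with an SD of 0.67 on the log2 scale. Followers by the same limits were 7 genes, at ranks 56, 117, 131, 150, 177, 181 and 186, with r from 0.91 to 0.99. Among the hybrids, all 8 were lowest in fish 13; over all 10 brains, P. formosa brain 11 was lower still for the genes at ranks 56, 117 and 186. The 7 made up 3.52% of the other 199 genes, against 2.11% of the genes with 5 CPM. These correlations rest on 6 libraries of 1 brood and are a description. In this second group they lean on 1 library, hybrid 13. There gene 103141082 had 315 CPM, against 778 to 1112 CPM in the other hybrids. The gene at rank 177 had 107 CPM there, against 286 to 370 CPM. No r without hybrid 13 was computed, so likeness among the other hybrids is not shown.

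**Figure D5:**
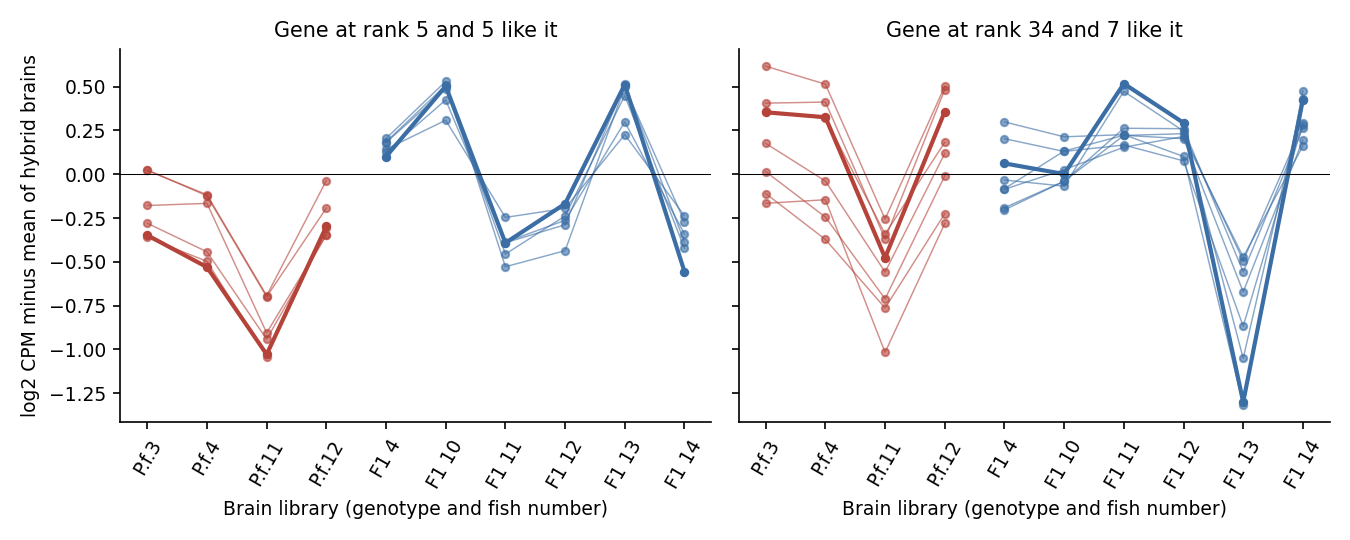
Log2 CPM minus the mean of the hybrid brains, by brain library, for gene 103137993 at rank 5 with 5 genes like it (left) and gene 103141082 at rank 34 with 7 genes like it (right); thick lines are the named genes, thin lines the others, red P. formosa and blue F1 hybrids. Lines join the values of 1 gene and the order of fish has no meaning. On the left hybrids 10 and 13 are highest among the hybrids and on the right hybrid 13 is the lowest hybrid, where the named gene had 315 CPM.

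Likeness among the first 20 ranks, leaving out gene 103149218, rested on 1 library. Over all 10 brains, after the mean of each genotype was subtracted, the median r of the 171 pairs was 0.60. Without P. formosa brain 11 it was 0.06, with pairs from -0.90 to 0.96.

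The rule did not use the contrast between the runs of library numbers within the hybrid brood, and this one was tested in brain. Hybrids 11 to 14 were set against hybrids 4 and 10. Gene 103152839, at rank 23, had 1559, 1543, 1601 and 1303 CPM in hybrids 11, 12, 13 and 14, and 838 and 933 CPM in hybrids 4 and 10. The fish of the later run were all higher. P. formosa brains 3, 4, 11 and 12, of the earlier run, had 880, 789, 544 and 874 CPM, a range that met that of hybrids 4 and 10. It rose by 0.73 on the log2 scale (SE 0.11), higher in 4 of 4 fish of the later run, with an adjusted p of 0.0269 by edgeR's quasi-likelihood test. It was the only one of the 200 called higher, and none was called lower, where 0.248% of all 22600 genes tested were called higher and 0.942% lower, 1.19% in either direction. At an unadjusted p under 0.05, 18 were higher and 16 lower, against 7.97% and 8.71% of all. With 2 fish in the earlier run, the fish and the run cannot be told apart. Without hybrid 13, 12 genes were called higher and 11 lower, against 1.98% and 3.27% of all, and without any 1 of hybrids 4, 10, 11 or 12 none was called.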

How the data were processed

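The 28 libraries are columns of 1 table that the authors deposited, holding raw counts of reads per gene, not normalized. The submitters' processing notes name TopHat2 and featureCounts; versions, settings, genome build, annotation and strand are not given in the sources used here. Libraries followed a TruSeq mRNA protocol from RNA with an integrity number above 8, per the labels' protocols. Columns were matched to samples by the read file named in the description, and 0 columns were unused. Reads of the F1 hybrids carry alleles of 2 species, and those of P. formosa, itself of hybrid origin, can do so too. The effect of 1 reference on the genotypes' counts was not tested.

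CPM used plain totals unless TMM is named. Fits were made per organ by edgeR 4.0.16 under R 4.3.3 (filterByExpr, TMM, robust quasi-likelihood test, Benjamini-Hochberg over all genes tested, threshold 0.05), with DESeq2 1.42.0 as an alternative. The SE is the log2 fold change over the root of the test statistic. The fits were tested on simulated counts. Libraries of a group differed by a chi-square of at least 13.4 per degree of freedom, so no pair was treated as a duplicate. Genotype calls in the 200 genes are descriptive, because the rule bounded that contrast, and no p is printed for them. Genes named by genotype had the largest differences among called genes without overlap and with at least 1 CPM in 1 genotype, of which 5 per direction were listed and at most 2 printed by ID. Also named were genes of the first 20 ranks, those with the largest SD among siblings and those at the limits of the rule; the genes lowest in the same brains as gene 103149218, the genes that varied together and the gene at rank 135 were chosen after their values were seen. The within-run fit and plain totals were alternatives added after seeing the data. The members and lists were chosen with earlier results of these data known. Lists of markers and pathways written by gene symbol were not used here, because IDs were not paired with names. Alternatives were other scalings, no filter, leaving out fish, the runs of library numbers as a term, and fish numbers as a block.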

Additional observations from a re-analysis of the deposited data

Results flagged for a closer look

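Dixon's test at 95%, applied to 66 groups of 4 to 6 values (sums over the 200 genes and single genes given above), marked 5 single libraries as far from their siblings, and chance marks about 1 in 20 groups. Gene 103148825, at the second rank, was at 6104 CPM in hybrid brain 13. Gene 103141082 was at 558 CPM in P. formosa brain 11. Gene 103129462 was at 0.897 CPM in hybrid ovary 12. At rank 4 a gene was at 5871 CPM in hybrid brain 13, and the gene at rank 11 was at 149 CPM in hybrid ovary 13.

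Among the single genes given above, the genotypes stood in opposite order in 2 organs, without overlap, for a pair of genes. Gene 103147594 averaged 1.88 CPM in P. formosa liver against 0.118 CPM in hybrid liver, every P. formosa fish above every hybrid, and 7.71 CPM in P. formosa ovary against 15.0 CPM in hybrid ovary, every P. formosa fish below every hybrid. At rank 4 a gene averaged 2439 CPM in P. formosa brain against 4509 CPM in hybrid brain, every P. formosa fish below every hybrid, and 0.853 CPM in P. formosa liver against 0.265 CPM in hybrid liver, every P. formosa fish above every hybrid. Some genes of the set that are not given above also had opposite orders without overlap. The gene at rank 98 was lower in P. formosa brain and higher in P. formosa ovary. The gene at rank 101 was higher in P. formosa liver and lower in ovary, and the gene at rank 115 the reverse. Such genes were not counted over the whole set or over all genes tested. In single organs, P. formosa stood above the hybrids without overlap in 6.56% to 19.8% of all genes tested. It stood below in 4.81% to 14.1%. Gene 103147594 was itself named for a lack of overlap in liver. The gene at rank 4 averaged under 1 CPM in the livers of both genotypes, so its order there rests on few reads. The differences between the organs were not tested.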

How the results depend on the processing

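The median log2 ratio of the 200 genes kept its sign in each organ under every alternative run; leaving out 1 fish gave -0.30 to -0.12 in brain, 0.30 to 0.35 in liver and 0.21 to 0.35 in ovary. It was -0.07 in brain without P. formosa fish 4 and 11, and in liver it was 0.40 with plain totals and 0.42 over genes past the filter. Genes called lower in brain were 53 by DESeq2 (8.04% of all genes tested) and 1 with the runs of library numbers as a term (1.23%). They were 0 within the run that holds both genotypes (0.518%) and 4 without P. formosa fish 4 and 11 (1.64%). With 1 fish left out, 5 to 32 were lower (1.84% to 4.76% of all) and 0 to 1 higher (3.62% to 11.1%). The fewest lower, 5, came without P. formosa fish 4 and the most, 32, without fish 3. In liver, 73 of the 200 were called higher without a filter, against 18.8% of all. Higher and lower were 26 and 5 of 118 genes with the runs as a term, against 18.6% and 17.6% of all. Within 1 run they were 30 and 4 of 158 genes, against 18.9% and 17.5% of all. With 1 fish left out, 33 to 54 were higher (19.4% to 25.2% of all) and 5 to 8 lower (17.0% to 23.5% of all). In ovary, leaving out 1 fish gave 25 to 64 higher and 8 to 16 lower. The shares of all genes tested were 10.5% to 14.4% higher and 8.57% to 14.2% lower. Between runs, leaving out 1 hybrid gave 0 to 12 higher and 0 to 11 lower. The shares of all genes tested were there 0.00432% to 1.98% higher and 0.0735% to 3.27% lower. The cause of these shifts was not tested.

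Fish numbers shared by the genotypes name different animals. Deviations of same-numbered fish correlated at -0.105 to 0.0841 in brain, 0.0449 to 0.0571 in liver and -0.14 to 0.0688 in ovary, so the numbers do not pair the samples. As a replicate block they gave 0 genes lower in brain, against 0.177% of all genes tested. In liver the block gave 30 higher and 4 lower, against 15.9% and 13.2% of all. In ovary it gave 2 higher and 3 lower, against 1.6% and 1.03% of all. For the 10 single genes named with a difference, 144 of 155 alternatives kept the call, 11 lost it and 0 reversed it. These genes were named because they were called in the same libraries, and many alternatives refit nearly the same fish. Kept calls are therefore a description and no separate support. The losses were uneven. Gene 103152839, named for the runs of library numbers and not for genotype, lost the call in 4 of 8. In brain, gene 103145747 lost it in 3 of 18 and gene 103133106 in 2 of 18. In ovary, genes 103129462 and 103138399 lost it in 1 of 15 each. Other versions of the rule shared 160 to 191 of the 200 genes. The SD given is the spread between fish of a group, and the SE is that of the fitted log2 fold change.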
